A study of Mus musculus with 42 samples.

Results

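The sites compared here were those of euploid mouse hippocampus in a pair of deposited peak lists, one of SMARCA2/4 binding and one of open chromatin. All peaks of both lists were taken, 22667 for SMARCA2/4 and 15521 for open chromatin, which makes 38188 of the 100790 peaks in the lists of all genotypes of the series. The study compared euploid mice with Ts65Dn mice, a trisomic model of Down syndrome, and with Ts65Dn;Brwd1+/- mice, in which 1 copy of Brwd1 is disrupted. Its 42 samples were SMARCA2/4 chromatin immunoprecipitation (ChIP-seq), neuronal ATAC-seq and RNA-seq of neuronal cultures. The comparison asked how many SMARCA2/4 sites lay in or near open chromatin, where in the genome and at which genes.

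The euploid mice of these assays were males on a mixed DBA/2J x B6EiC3Sn/J background, from crosses that also gave the trisomic genotypes. SMARCA2/4 was measured in whole hippocampal tissue, with the hippocampus of one side from 2 animals of 6 to 8 weeks pooled for each replicate, in 4 libraries from the precipitate and 4 from input. Open chromatin was measured in 3 libraries of adult hippocampal nuclei that had been sorted for NeuN, a protein of neuronal nuclei encoded by Rbfox3. The ChIP-seq list therefore covered neurons, glia and vessels, the ATAC-seq list neurons alone. Each of these assays had 1 list for all its libraries, so no value from the peaks has a replicate error, and no difference between the lists was tested over animals. Intervals are 95% Wilson intervals for shares and Newcombe intervals for differences of shares, and both cover counting error over peaks only. Read depth behind the lists cannot be read from them.

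SMARCA2 (BRM) and SMARCA4 (BRG1) are the alternative ATPases of the BAF (SWI/SNF) complex, which uses ATP to slide or evict nucleosomes at promoters and enhancers. The antibody recognises both proteins, so the list does not tell them apart. ATAC-seq cuts DNA with a transposase that reaches mainly nucleosome-free DNA, and in neurons most strong ATAC-seq peaks are promoters and enhancers. In post-mitotic neurons a specialised form of the complex, with subunits such as ACTL6B and SS18L1, takes the place of the form of neural progenitors, and it is known for its part in dendrite growth and activity-dependent transcription.

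The DNA under the peaks shows the kinds of site that the comparison separates. The next windows of 300 bases, from the mm10 assembly of RefSeq, are each centred on a high-ranked peak of its promoter kind whose window held no annotated untranslated base, although the peak itself may reach one. Tmx4, which encodes a thioredoxin-like membrane protein, stands for promoters with both marks, and the capitals are the bases inside both its SMARCA2/4 and its ATAC peak. Hmgb2, a high-mobility group chromatin protein, stands for promoters with ATAC and no SMARCA2/4 peak within 1 kb.
Tmx4, chr2:134644168-134644467, minus strand: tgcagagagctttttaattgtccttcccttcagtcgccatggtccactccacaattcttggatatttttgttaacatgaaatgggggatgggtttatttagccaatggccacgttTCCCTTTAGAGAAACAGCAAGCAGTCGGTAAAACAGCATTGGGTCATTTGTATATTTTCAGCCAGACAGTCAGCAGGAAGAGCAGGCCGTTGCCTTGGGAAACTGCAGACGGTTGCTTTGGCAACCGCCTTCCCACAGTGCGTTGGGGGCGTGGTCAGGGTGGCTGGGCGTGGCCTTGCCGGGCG
Hmgb2, chr8:57511564-57511863, plus strand: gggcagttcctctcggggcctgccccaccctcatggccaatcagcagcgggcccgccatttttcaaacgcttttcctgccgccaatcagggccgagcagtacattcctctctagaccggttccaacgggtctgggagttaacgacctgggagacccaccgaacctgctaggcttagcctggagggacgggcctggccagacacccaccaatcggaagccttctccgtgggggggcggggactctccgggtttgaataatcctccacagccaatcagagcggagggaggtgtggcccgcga
The Tmx4 peaks shared 218 bp, at a fold enrichment of 5.88 for SMARCA2/4 and 5.90 for ATAC. The Hmgb2 ATAC peak had a fold enrichment of 10.4 and lay 140014 bp from the nearest SMARCA2/4 peak. Fold enrichment is the linear ratio over background that the peak caller gave each peak, and it is not on a common scale between the assays.

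Outside genes the strongest SMARCA2/4 peaks were of unlike sequence. The strongest intergenic peak with an ATAC peak had a fold enrichment of 6.71 and shared 234 bp with it, shown in capitals. The strongest intergenic peak without one, at 14.6, lay in a short tandem repeat, of which 60 bases are shown. Its 300 bases consisted of 45 ATTCC and 15 ACTCC units.
Intergenic site, chr2:59522292-59522591, plus strand: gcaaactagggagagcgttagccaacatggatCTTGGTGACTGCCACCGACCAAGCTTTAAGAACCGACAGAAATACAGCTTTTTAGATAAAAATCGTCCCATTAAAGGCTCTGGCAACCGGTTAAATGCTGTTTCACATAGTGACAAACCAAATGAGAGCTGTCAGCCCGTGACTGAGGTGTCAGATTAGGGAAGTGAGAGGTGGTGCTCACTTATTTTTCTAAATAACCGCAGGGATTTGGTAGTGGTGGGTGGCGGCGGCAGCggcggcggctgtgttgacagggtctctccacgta
Intergenic repeat, chr17:4626275-4626334, plus strand: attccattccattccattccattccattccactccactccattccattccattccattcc

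Of the 22667 SMARCA2/4 peaks, 26.5% (25.9 to 27.1; 6009 peaks) overlapped a euploid ATAC peak by at least 1 bp, and 51.0% (50.4 to 51.7; 11561 peaks) lay within 1 kb of one, overlaps included. The other 11106 peaks were farther away. In the reverse direction 31.2% (30.5 to 31.9; 4840 peaks) of ATAC peaks overlapped a SMARCA2/4 peak. This share depended on the length of the SMARCA2/4 list and was 14.2% with its peaks of q under 0.001 only. ATAC peaks covered 0.227% of the chromosomes and SMARCA2/4 peaks 0.0984%. Where both lists had a peak the shared stretch had a median of 85 bp, and 54.5% of the overlapping SMARCA2/4 peaks lay wholly inside the ATAC peak. SMARCA2/4 peaks were short, with a median of 93 bp against 337 bp for ATAC, and their overlap went from 19.7% of those under 75 bp to 49.1% of those of 300 bp or more. In bulk tissue a site missing from a list cannot be told apart from one that few of the cells carry.

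A site without a euploid ATAC peak was often open in the lists of the other genotypes. The Ts65Dn and Ts65Dn;Brwd1+/- ATAC lists held 29195 and 30244 peaks, nearly double the euploid number. Of the 11106 SMARCA2/4 peaks farther than 1 kb from euploid ATAC, 27.9% (27.1 to 28.8) overlapped a peak of those lists, and among proximal promoter peaks it was 42.6% (40.1 to 45.1). Against the union of all 3 ATAC lists, 50.5% of euploid SMARCA2/4 peaks overlapped open chromatin. "Without ATAC" below means without a peak in the euploid list. With 1 list each, an effect of genotype on the number of ATAC peaks cannot be told apart from one of the libraries.

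Overlap differed by position in the gene. Region classes were those of the deposited annotation, by distance of the peak from a transcription start site (TSS): proximal promoter to 250 bp, promoter to 1 kb, promoter to 3 kb, gene body beyond that, and intergenic. Of the 5643 SMARCA2/4 peaks at proximal promoters, 50.9% (49.6 to 52.2) overlapped ATAC, against 24.1% (22.6 to 25.7) of the 2901 intergenic peaks, a difference of 26.8 percentage points (24.7 to 28.8). Gene body peaks, the most numerous at 6149, had the low share of 14.6% (13.8 to 15.5). Peaks more than 250 and up to 1000 bp from a TSS overlapped in 23.2% but lay within 1 kb of ATAC in 71.2%, close to the 74.2% of proximal promoters. From 1 to 3 kb the shares dropped to 11.2% and 30.6%. The share within 1 kb was thus high up to 1 kb from the TSS and low beyond it, whereas the overlap share was highest at proximal promoters and lowest from 1 to 3 kb. The share of ATAC peaks with SMARCA2/4 varied less with class, from 24.1% of intergenic to 40.1% of promoter-to-1-kb peaks, with 32.2% at proximal promoters. Against the union of the 3 ATAC lists the overlap was 75.8% at proximal promoters, 37.7% in gene bodies and 50.9% between genes.

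**Figure D1:**
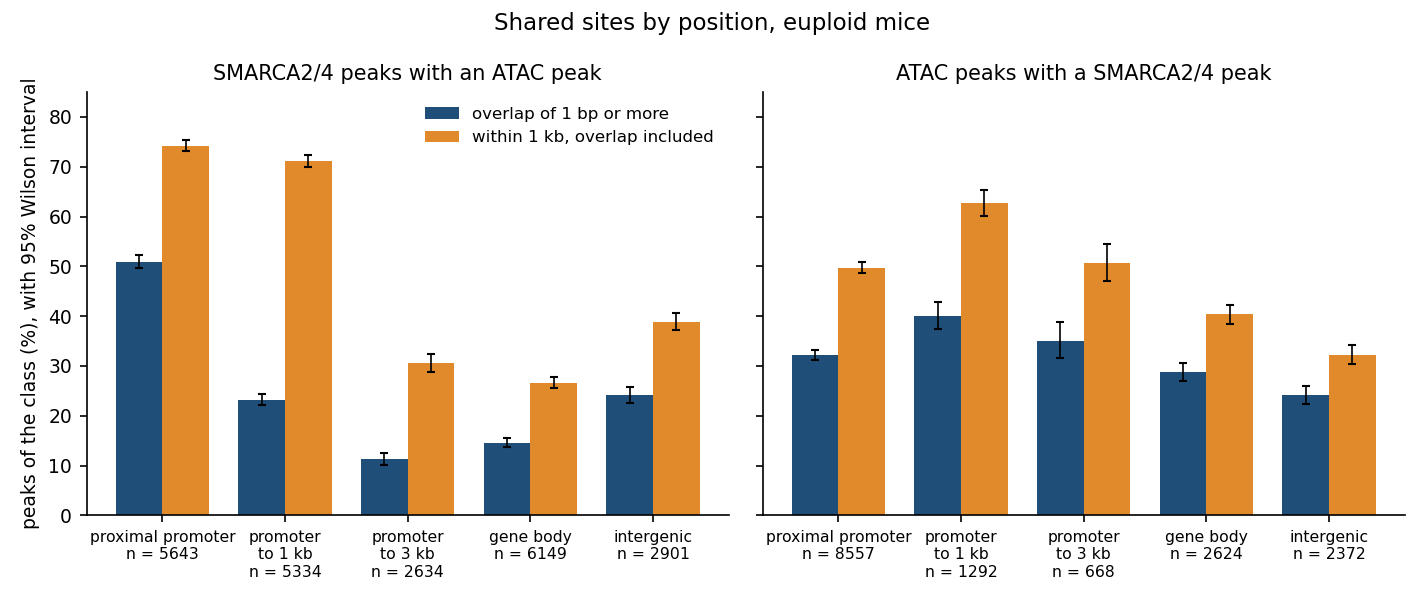
Bars give the percentage of peaks of each region class that overlap the other list (blue) or lie within 1 kb of it (orange), with 95% Wilson intervals over peaks; left, SMARCA2/4 peaks, right, ATAC peaks. SMARCA2/4 peaks at proximal promoters overlapped ATAC in 50.9% and gene body peaks in 14.6%, whereas ATAC peaks of the 5 classes lay between 24.1 and 40.1%.

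SMARCA2/4 centres were densest at the TSS but more widely spread around it than ATAC centres. Among peaks within 1 kb of a TSS, 25.5% of the 10977 SMARCA2/4 centres lay within 100 bp of it, against 65.8% of the 9849 ATAC centres. SMARCA2/4 centres were found more than 250 and up to 1000 bp downstream in 28.3% and upstream in 20.3%, ATAC centres in 7.10% and 6.02%. At proximal promoters 72.9% of SMARCA2/4 and 97.7% of the longer ATAC peaks touched an exon, while 41.9% and 9.40% lay entirely within exons, and gene body peaks of both kinds were intronic, 88.2% and 86.9%. Pairs of an ATAC and a SMARCA2/4 centre within 2 kb numbered 8138 at proximal promoters and 3141 in gene bodies and between genes. A SMARCA2/4 centre near several ATAC peaks was counted with each. The first profile had its highest bins on both sides of the ATAC centre and a slight dip on it, and the second a single narrower top.

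**Figure D2:**
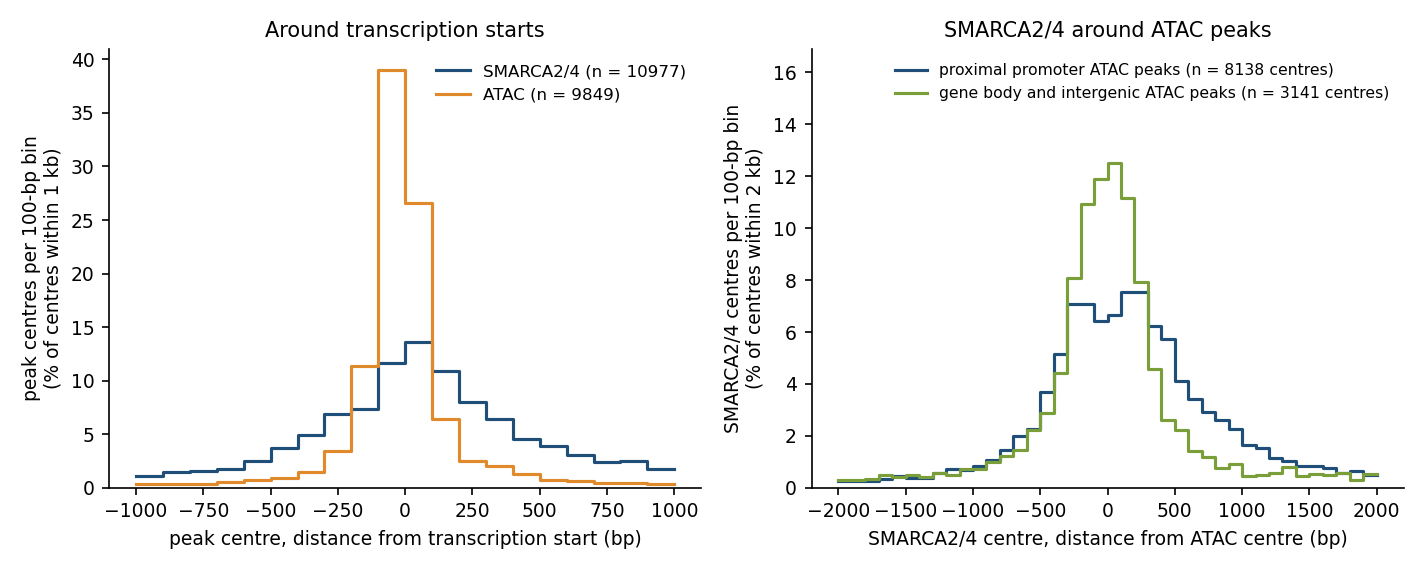
Left, peak centres in 100-bp bins around the nearest transcription start, as a percentage of all centres within 1 kb (blue SMARCA2/4, orange ATAC; positive is downstream). Right, SMARCA2/4 centres around ATAC centres within 2 kb, at proximal promoters (blue) and in gene bodies and intergenic DNA (green); of the SMARCA2/4 centres within 1 kb of a start, 25.5% lay within 100 bp of it, of the ATAC centres 65.8%.

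Overlap varied less with peak strength than with position. Ranked on fold enrichment into 10 equal groups, SMARCA2/4 peaks overlapped ATAC in 30.4% of the lowest decile, 21.9% of the next, 25.5% of the fifth and 34.5% of the highest. The highest exceeded the lowest by 4.13 points (1.41 to 6.85) and the fifth by 9.04 (6.38 to 11.7), with the low values in between. At proximal promoters the share was 55.0% in the lowest decile, 47.5% in the fifth, 46.8% in the ninth and 53.8% in the highest, the ends differing by -1.16 points (-6.94 to 4.64). In gene bodies the ends were 19.1% and 21.1% with 8.78% in the second decile. ATAC deciles ran from 34.7% in the lowest through 26.4% in the fifth to 34.9% in the highest. Across the 6009 overlapping pairs, each SMARCA2/4 peak with its ATAC partner, the Spearman coefficient of the fold enrichments was -0.044, a description over pairs that share 1 list each. The decile difference kept neither its size nor its direction. It was 14.3 points (11.7 to 16.9) ranked on q-value and 15.8 (12.6 to 18.9) with the SMARCA2/4 list shortened to its strongest peaks, as many as the ATAC list holds, but with SMARCA2/4 peaks of q under 0.001 only, the highest decile lay below the lowest by 5.55 points (a difference of -5.55 points). With every peak set to 300 bp it was 2.32 points (-0.40 to 5.04). Peaks of the highest decile had a median length of 147 bp and those of the lowest 93 bp, and the part of length was not tested.

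**Figure D3:**
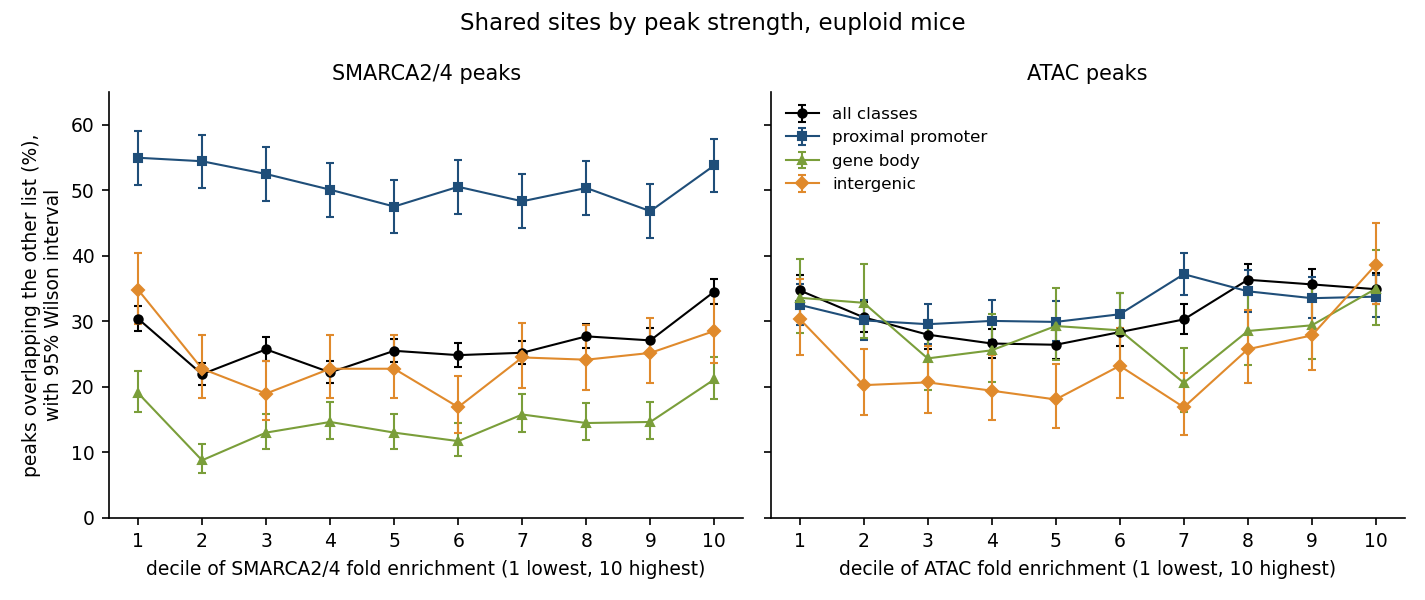
Percentage of peaks overlapping the other list by decile of fold enrichment, with 95% Wilson intervals, for all peaks (black), proximal promoter (blue), gene body (green) and intergenic peaks (orange); left, SMARCA2/4, right, ATAC. The SMARCA2/4 proximal promoter line starts at 55.0%, dips to 46.8% in the ninth decile and ends at 53.8%, above the gene body line throughout.

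The strongest SMARCA2/4 peaks were not in the euploid ATAC list. None of the 20 highest overlapped a euploid ATAC peak, which allows a share of up to 16.1%, whereas 9 of the highest 50, 27 of the highest 100 and 182 of the highest 500 did. The nearest ATAC peak to any of the 20 was 3.78 kb away. Of these 20 peaks, 11 were intergenic, 10 were under 75 bp long and 12 were at least 50% repeat-masked, against 3.93% of all SMARCA2/4 peaks, and their part in the fold enrichment was not tested. A further 5 lay in coding exons of Ss18l1, the neuronal BAF subunit also called CREST, and the first-ranked, at a fold enrichment of 20.4, in a coding exon of Brwd1, a bromodomain and WD repeat protein, at chr16:96059477-96059646 (mm10). Of the ATAC peaks 14 of the highest 20, 25 of the highest 50, 39 of the highest 100 and 186 of the highest 500 overlapped SMARCA2/4. The SMARCA2/4 partners of those 14 ran from 1.53 to 4.47, and most were weak, within the lowest SMARCA2/4 decile, which reached 3.02. The first-ranked ATAC peak, at 28.8, had a partner of 1.64. Some of the 14 lay on scaffolds outside the assembled chromosomes.

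Ss18l1 was singled out after its values were seen. It had 12 SMARCA2/4 peaks, 9 of them in the gene body, and all 9 touched a coding exon, against 4.13% of all gene body peaks. Fold enrichment over its 10 coding-exon peaks ran from 5.74 to 13.7. Whether these peaks, and the first-ranked one in a coding exon of Brwd1, mark SMARCA2/4 bound at the genes themselves was not tested. The gene had 1 overlap, a peak of 8.45 centred 334 bp downstream of the start in a coding exon, which shared 53 bp with an ATAC peak of 4.07 that the annotation gave to a neighbouring gene. Its strongest peak, at chr2:180054983-180055204 (mm10), lay 6335 bp from the nearest ATAC peak, a weak one of 2.85 in the same gene. Brwd1 had a second SMARCA2/4 peak, of 3.97, that lay 140 bp from the ATAC peak at its own start. Without the peaks of both genes the overlap was 26.5% and the decile difference 4.27 points.

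SMARCA2/4 peaks also came in runs. Joined where no more than 1 kb apart, a choice made after the values were seen, they formed 14602 sites, of which 31.8% (31.1 to 32.6) overlapped ATAC. Sites of 1 peak overlapped in 23.1%, of 2 peaks in 45.4%, of 3 to 5 in 57.8% and of 6 or more in 68.3% (61.3 to 74.5; 186 sites). A site counted as overlapping if any of its peaks did, so longer runs had more chances to. Such sites were also more often at promoters, 21.2% of single peaks and 71.0% of runs of 6 or more holding a proximal promoter peak. Counted over single peaks by gene, peaks of the 2976 protein-coding genes with 1 peak overlapped ATAC in 40.4%, and those of the 227 genes with 10 or more in 13.8%, the latter genes having a median span of 155 kb against 26.5 kb. Tcf4, an E-box transcription factor of neurons, had the most peaks, 85, with 3 overlapping ATAC. Nfix, a nuclear factor I gene of neural stem cell and hippocampal development, had 65 with 1 overlapping, and Celf2, an RNA-binding protein gene, 33 with none. By contrast 10 of the 45 peaks of Kalrn, a synaptic guanine nucleotide exchange factor, overlapped, and 7 of the 34 of Myt1l, a factor that represses non-neuronal genes. These genes were chosen for their number of peaks.

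Gene by gene, SMARCA2/4 and open chromatin met at promoters. Of 21938 protein-coding genes, 3619 (16.5%) had a SMARCA2/4 peak at a proximal promoter, 7572 (34.5%) an ATAC peak, 2569 (11.7%) both, 1050 (4.79%) SMARCA2/4 only and 5003 ATAC only. An ATAC peak stood at 71.0% (69.5 to 72.4) of the genes with SMARCA2/4 and at 27.3% (26.7 to 28.0) of the others. From the other side, 33.9% (32.9 to 35.0) of genes with an ATAC promoter peak had SMARCA2/4. In 78.8% of the 2569 genes with both, peaks also overlapped, and the rest had them at different starts or side by side. In gene bodies, of 2153 genes with SMARCA2/4 and 1627 with ATAC, 989 had both, which is 45.9% of the first and 60.8% of the second. Of the genes without gene body SMARCA2/4, 3.22% had gene body ATAC. The number with SMARCA2/4 only at the promoter was not stable, falling to 393 against the union of the ATAC lists. The number with both promoter marks moved too, over all genes from 2746 to 1212 with SMARCA2/4 peaks of q under 0.001 only.

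The strongest promoters with both marks belonged to genes of varied function. They were Pbld2 at a SMARCA2/4 fold enrichment of 7.03, Itm2b, a membrane protein processed in the amyloid pathway, at 6.59, Faim2, a neuronal inhibitor of apoptosis, at 6.43, Mob1b of the Hippo pathway at 6.38, Gramd1b, a cholesterol transporter, at 6.36, Cct7, a chaperonin subunit, at 6.35, Cadps, which primes dense-core vesicles, at 6.28 and Insr, the insulin receptor, at 6.28. The ATAC fold enrichment ranged from 2.57 at Gramd1b to 5.74 at Pbld2. The Mob1b peak, of 88 bp, lay wholly inside its ATAC peak, while at Itm2b 97 bp of 195 were shared.

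Promoters with strong SMARCA2/4 and no euploid ATAC peak within 1 kb included those of Fndc1 at 6.28, the anion exchanger gene Slc4a2 at 6.03, Coro1a, an actin regulator of leukocytes, at 6.00, the RNase P subunit gene Pop5 at 5.93, Akap6, an anchor of protein kinase A, at 5.62, the peroxiredoxin gene Prdx1 at 5.60 and Sirpa, a surface receptor of neurons and myeloid cells, at 5.56. At Fndc1, Pop5, Akap6 and Prdx1 the peak overlapped an ATAC peak of the trisomic lists, and at Sirpa and Slc4a2 such a peak lay 148 and 930 bp away. Coro1a was 3074 bp from the nearest.

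Promoters with strong ATAC and no SMARCA2/4 peak within 1 kb were those of Hmgb2 at 10.4, Inpp5f, a phosphoinositide phosphatase, at 10.1, Kifap3, a kinesin adaptor, at 9.83, Gcsh of the glycine cleavage system at 9.82, the methyl-CpG binding gene Mbd1 at 9.73, Siah1b, a ubiquitin ligase, at 9.52, Pcna, the DNA polymerase clamp, at 8.98 and Cfdp1 at 8.90. Their lengths ran from 342 bp at Cfdp1 to 723 bp at Inpp5f, all above the list's median of 337 bp. Siah1b is on the X chromosome, which had 33 SMARCA2/4 against 240 ATAC peaks, while on the autosomes SMARCA2/4 peaks outnumbered ATAC peaks, from 1.17 per ATAC peak on chromosome 13 to 1.81 on chromosome 11.

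In gene bodies the strongest shared sites were intronic, in Tbc1d22a at 6.82, Mdga1, a synaptic adhesion regulator, at 6.17, Tenm2, a teneurin adhesion receptor, at 6.03, Morn1 at 5.97 and Kcnc4, a Kv3 potassium channel, at 5.96. Those without ATAC were in Ss18l1 at 13.7, Papss2, a sulfate-activating enzyme, at 10.6, Stxbp5l, a syntaxin-binding protein, at 7.95, the neurexin gene Nrxn3 at 7.13 and Itgb7, a leukocyte integrin, at 7.04. Of these 5, only the Itgb7 peak overlapped an ATAC peak of the trisomic lists. ATAC peaks without SMARCA2/4 were led by Lars2, a mitochondrial tRNA synthetase, at 8.71, ahead of Zfp185, Mrps27, Celf2 and Sf3b5 at 6.80, 6.79, 6.66 and 6.63.

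Marker genes were used to check the labelled cells. An ATAC peak stood at the promoter of 9 of 12 neuronal identity genes (75%, beside 34.5% of all protein-coding genes). SMARCA2/4 stood at 6, all 6 of them with ATAC (50%, beside 16.5% of all protein-coding genes with SMARCA2/4 and 11.7% with both). At Syt1, the calcium sensor of transmitter release, a SMARCA2/4 peak of 5.78 lay wholly inside an ATAC peak of 7.21, and Nefl, a neurofilament, had 4.90 inside 3.54. Tubb3, Dlg4 and Camk2a, a neuronal tubulin, the PSD-95 scaffold and a kinase of synaptic plasticity, made up the 6 with Map2. At Map2, a microtubule protein of dendrites, the SMARCA2/4 peak of 5.53 shared 131 bp with an ATAC peak of 3.77 at an internal start, while the stronger ATAC peak of 4.68 was at another start. Snap25 had an ATAC peak of 4.62 and its nearest SMARCA2/4 peak 359 bp away. Rbfox3, whose protein was used for the sort, had 26 SMARCA2/4 peaks and 1 ATAC peak, in an intron, at 3.20, and 2 of the 26 overlapped it. Its strongest, 6.23 and 677 bp from a start, overlapped an ATAC peak of the trisomic lists only.

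Markers of single neuron types and of other cells had fewer promoter peaks. None of 12 GABAergic interneuron genes, of 12 endothelial and pericyte genes or of 19 Hox genes had a promoter peak of either kind, and none of 16 muscle and liver genes or 13 olfactory and taste receptor genes did. Astrocyte markers had ATAC at 0 of 12 promoters and SMARCA2/4 at 2, the glutamate transporter genes Slc1a2 at 3.50 and Slc1a3 at 3.24. Oligodendrocyte lineage markers had ATAC at 0 of 12 and SMARCA2/4 at 2, the myelin genes Cnp at 4.02 and Mbp at 3.21. These shares of 16.7% stand beside 16.5% of all protein-coding genes, and a SMARCA2/4 peak of any class was found at 6 of 12 astrocyte and 2 of 12 oligodendrocyte markers, beside 29.4% of all protein-coding genes. Microglial markers had ATAC at 2 of 12, among them Aif1 at 3.20, and SMARCA2/4 at none. Choroid plexus and ependymal markers had ATAC at 2, Foxj1 and Rsph1, and SMARCA2/4 at Rsph1 alone. The defining genes Aqp4, Gja1, Olig2, Sox10, Mog, Cx3cr1, P2ry12 and Tmem119 had no promoter peak in either list. The glial part of the bulk ChIP-seq list in the sites without ATAC was not tested. Dentate and pyramidal neuron genes had SMARCA2/4 at 3 of 12, the transcription factor genes Zbtb20 at 4.43, Tbr1 at 4.32 and Prox1 at 3.52, and ATAC at 4 others, among them Calb1 at 5.76 and Mef2c at 4.55, with 0 at both. Their ATAC share of 33.3% stands beside 34.5% of all protein-coding genes.

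Of the 28 BAF subunit genes, 8 had neither mark, 11 had SMARCA2/4 at the proximal promoter, 19 ATAC and 10 both, a share of 35.7% beside 11.7% of all protein-coding genes. At Smarca2 a SMARCA2/4 peak of 3.25 lay wholly inside the promoter ATAC peak of 6.02, and 9 further SMARCA2/4 peaks lay in the gene without overlap. At Smarca4 a peak of 3.52 shared 16 bp with the ATAC peak of 7.49. Arid1a, a DNA-binding subunit of the complex, had 4.52 wholly inside an ATAC peak of 2.95. Among the neuronal subunits Actl6b had 4.04 for SMARCA2/4 and 4.60 for ATAC, and Dpf1, a PHD finger subunit, 4.05 and 4.37. Actl6a, the progenitor counterpart of Actl6b, had 3.82 and 7.36. Arid1b, the paralog of Arid1a, was the 1 member with SMARCA2/4 only, at 4.27, and that peak overlapped an ATAC peak of the trisomic lists. The core subunit gene Smarcc1 had ATAC at 6.71 and no promoter SMARCA2/4. In the BRWD family of 3, Brwd1 and Phip had an ATAC promoter peak and none had a SMARCA2/4 peak of the proximal class, although a SMARCA2/4 peak of 3.82 lay wholly inside the Phip ATAC peak of 4.24. Among 20 other chromatin writers and readers 13 had ATAC, 5 SMARCA2/4 and 3 both (65%, 25% and 15%, beside 34.5%, 16.5% and 11.7% of all protein-coding genes), the last being Chd4, Ep300 and Chd8, and of those with ATAC only Ezh2, the Polycomb methyltransferase, had 7.41. The 2 with SMARCA2/4 only were Dnmt3a, a DNA methyltransferase, at 5.47, and Kmt2d, a histone H3 methyltransferase, at 3.27.

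Activity-regulated genes had the highest SMARCA2/4 share of the 25 lists, 55%, beside 16.5% of all protein-coding genes. Of 20 immediate early genes 11 had SMARCA2/4 at the promoter, 14 ATAC and 8 both, the last 2 counts beside 34.5% and 11.7% of all protein-coding genes. Within 1 kb of a start 17, 16 and 15 had them, beside 23.9%, 37.2% and 18.1% of all protein-coding genes. At Arc, which encodes a synaptic capsid-like protein, a SMARCA2/4 peak of 2.79 shared 182 bp with an ATAC peak of 3.17, and a stronger one of 4.46 lay 95 bp beyond. At Bdnf, the neurotrophin gene with several promoters, both SMARCA2/4 peaks, 3.73 and 3.52, lay wholly inside ATAC peaks. Of the 2 SMARCA2/4 peaks of Fos, the one of 4.27 lay 261 bp from the promoter ATAC peak of 3.10 and overlapped ATAC in the trisomic lists, and the one of 3.62 lay 1447 bp from it and 1178 bp from trisomic ATAC. At Npas4, a neuron-specific activity-induced factor, the SMARCA2/4 peaks lay 743 and 891 bp from an ATAC peak of 2.75. Homer1 had 4.27 wholly inside 5.31 and Junb 3.84 sharing 57 bp with 3.06. Fosl2, Egr4, Nr4a1 and Dusp1 were the other members with both, at SMARCA2/4 fold enrichments of 4.73, 3.52, 3.46 and 3.02. Jun was counted as SMARCA2/4 only, at 3.47, although its peak lay wholly inside an ATAC peak of 4.96, because the centre of that broad peak put it in the promoter-to-1-kb class.

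Synaptic, channel and axon guidance genes were read against the 11.7% of all protein-coding genes with both marks: the share was 27.8% of ionotropic glutamate receptor, 16.7% of synaptic vesicle, 15.4% of GABA-A receptor, 18.5% of axon guidance and 4.17% of voltage-gated channel genes. The counts for SMARCA2/4 and for ATAC alone stand beside 16.5% and 34.5% of all protein-coding genes. Ionotropic glutamate receptor genes had SMARCA2/4 at 6 of 18, ATAC at 8 and both at 5, with Gria2, an AMPA receptor subunit, at 4.43 sharing 194 bp with 4.90, and Gria1 at 3.82 wholly inside 3.67. Grin1 and Grin2a, NMDA receptor subunits, had 3.52 and 5.28 for SMARCA2/4 and 3.85 and 2.52 for ATAC, and Grik2 of the kainate receptors had 4.13 and 3.38. GABA-A receptor genes had SMARCA2/4 at 6 of 13, ATAC at 5 and both at 2, among them Gabra5, at 4.52 wholly inside 3.34. Synaptic vesicle genes had SMARCA2/4 at 11 of 24, ATAC at 11 and both at 4, among them Syn3, Syt4 and Pclo. Slc17a7, the vesicular glutamate transporter of hippocampal pyramidal cells, had 5.15 and its nearest ATAC peak 6440 bp away. At Unc13a, which primes vesicles, a SMARCA2/4 peak of 4.57 lay 36 bp from an ATAC peak of another class, so absence of the proximal class did not always mean distance. Voltage-gated channel genes had SMARCA2/4 at 11 of 24, ATAC at 6 and both at 1, Kcna4, where the peaks were 360 bp apart, so 10 had SMARCA2/4 only, beside 4.79% of all protein-coding genes. These included Cacna1d, a calcium channel, at 4.47. Its peak lay 12875 bp from euploid ATAC but overlapped ATAC in the trisomic lists. Against the union of the ATAC lists both were found at 9 channel genes, 8 vesicle genes and 5 GABA-A receptor genes, with ATAC then at 19 of 24 channel genes. With that union 14.7% of all protein-coding genes had both and 46.3% had ATAC. Axon guidance genes had SMARCA2/4 at 8 of 27, ATAC at 12 and both at 5.

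The next counts stand beside 34.5% of all protein-coding genes with ATAC, 16.5% with SMARCA2/4 and 11.7% with both. Cytosolic ribosomal protein genes had ATAC at 23 of 24 promoters and SMARCA2/4 at 6, all with ATAC, a share of 25% beside 16.5% of all protein-coding genes. Nuclear oxidative phosphorylation genes had ATAC at 18 of 22, SMARCA2/4 at 4 and both at 3 (81.8%, 18.2% and 13.6%), with Sdha at an ATAC fold enrichment of 7.80 and no SMARCA2/4 peak at its promoter. Replication-dependent histone genes, at whose near-identical copies unique mapping can lose reads, had ATAC at 9 of 17 and SMARCA2/4 at 2. Clock genes had ATAC at 14 of 15 and SMARCA2/4 at 7, all 7 with ATAC, a share of 46.7% with both beside 11.7% of all protein-coding genes. Among them Nr1d2, a REV-ERB repressor, had 4.98 wholly inside 4.26, and Per1 had 4.76, sharing 29 bp with an ATAC peak of 2.68. Developmental transcription factor genes had SMARCA2/4 at 1 of 30 and ATAC at 2, Lhx9 and Emx1.

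**Figure D4:**
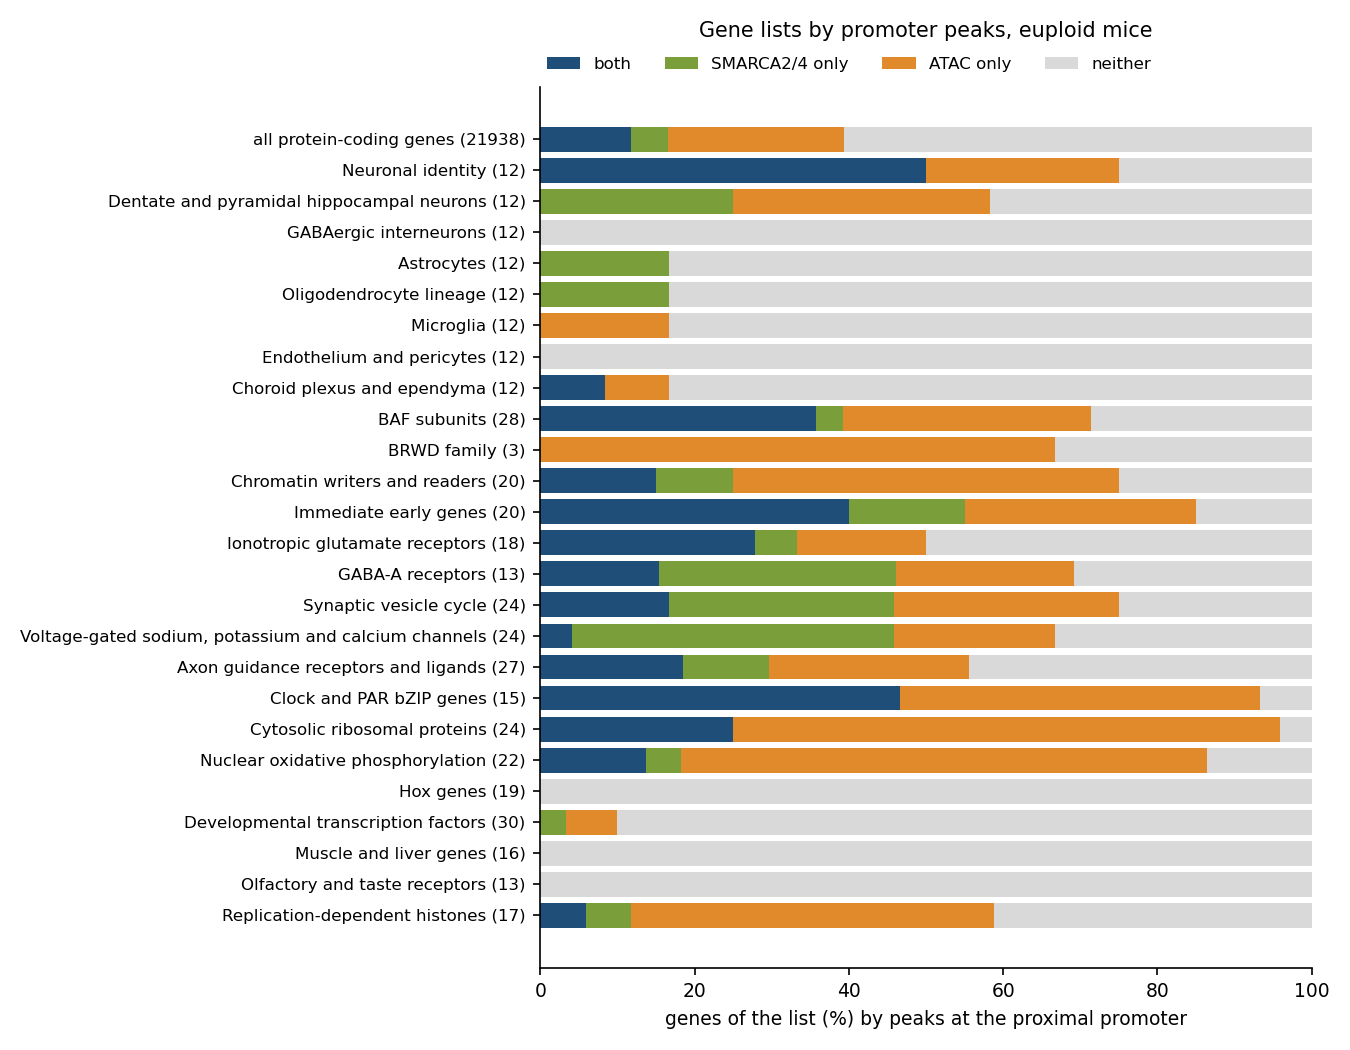
Each bar splits 1 gene list (number of members in brackets) by peaks at the proximal promoter into both (blue), SMARCA2/4 only (green), ATAC only (orange) and neither (grey), in percent of members; the top bar is all 21938 protein-coding genes. Ribosomal genes are mostly ATAC only (17 of 24) and voltage-gated channel genes hold 10 of 24 with SMARCA2/4 only.

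Expression was compared in an independent readout, RNA-seq of 3 euploid neuronal cultures from E16 forebrain of mixed male and female embryos, which differ in age, sex and tissue from the adult male hippocampus. Each library's median over the genes of a class was taken in counts per kb of exon, scaled to a common library total as in RPKM. It was 9.26 ± 0.135 (SD, n = 3) for genes with both promoter marks, 7.25 ± 0.028 for SMARCA2/4 only, 7.33 ± 0.177 for ATAC only and 0.0491 ± 0.0013 for neither. Genes with both stood above ATAC only genes in 3 of 3 libraries, by 1.25, 1.28 and 1.26 times, a mean of 1.26 ± 0.019. The medians of SMARCA2/4 only genes did not stand apart from those of ATAC only genes, at 0.988, 1.02 and 0.966 times. Their lower quartiles did, at 2.18 to 2.34 over the libraries against 3.18 to 3.38 for ATAC only. A level of at least 1 was reached by 95.7%, 84.2%, 92.4% and 29.1% of the 4 classes. Genes with both were also longer, with a median span of 31.0 kb against 26.6 kb for ATAC only.

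Base composition differed with the partner. In 300-base windows at proximal promoters the median GC content was 65.3% for SMARCA2/4 peaks overlapping ATAC and 59.7% for those farther than 1 kb from it, and the observed over expected CpG ratio 0.787 and 0.595. ATAC peaks differed less, 67.3% with SMARCA2/4 and 65.3% without, at ratios of 0.839 and 0.849. All 32851 RefSeq promoters had 52.7% and 0.384. Motif letters were searched on both strands for 11 motifs, and a match is a description of letters, not a bound site.

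The SP/KLF box GGGCGG occurred in 62.8% of proximal promoter windows of SMARCA2/4 peaks overlapping ATAC and in 40.7% of those far from it, a difference of 22.1 points (19 to 25.2), beside 35.7% of all RefSeq promoters, windows of the same length. ETS letters CCGGAAG, in 8.86% of RefSeq promoters, occurred in 12% and 4.81%. ATAC promoters went the other way: the ETS letters were in 16.3% of those with SMARCA2/4 and in 24% of those without, a difference of -7.67 points (-9.53 to -5.77). In intergenic ATAC windows the ETS difference was 2.98 points (1.31 to 5.16). NRF1 letters GCGCNTGCG, in 6.31% of RefSeq promoters, were in 14.9% of proximal promoter ATAC windows with SMARCA2/4 and in 18.2% of those without, but in 8.98% of proximal promoter SMARCA2/4 windows overlapping ATAC and in 2.96% of those far from it. YY1 letters AAGATGGCG, in 1.40% of RefSeq promoters, were in 3.59% and 4.88% of these ATAC windows and in 2.44% and 0.688% of these SMARCA2/4 windows. In gene bodies the AP-1 letters TGANTCA, in 7.81% of RefSeq promoters, were in 24.5% of ATAC windows with SMARCA2/4 and in 15.5% of those without, a difference of 8.98 points (5.49 to 12.6). The promoter share is no like background for gene body windows. Elsewhere the AP-1 difference was 3.62 points (0.776 to 6.66) for gene body SMARCA2/4, -2.99 (-4.76 to -1.35) for proximal promoter SMARCA2/4 and 2.94 (-0.800 to 6.95) for intergenic ATAC windows. RFX letters GTTGCCATG, in 0.773% of RefSeq promoters, were in 4.77% and 2.17% of gene body ATAC windows with and without SMARCA2/4. The neurogenic E-box CAGATG, in 17.2% of RefSeq promoters, was in 38.7% of gene body SMARCA2/4 windows overlapping ATAC and in 31.4% of those far from it, a difference of 7.33 points (3.92 to 10.8), and at proximal promoters in 11.2% and 16.6%, a difference of -5.37 points (-7.65 to -3.19). It was in 44.5% and 45.2% of the gene body ATAC windows with and without SMARCA2/4, a difference of -0.736 points (-5.03 to 3.59). In all, 66 differences were computed. The SP/KLF letters are GC-rich, and their match moved with the GC content above, whose part was not tested.

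**Figure D5:**
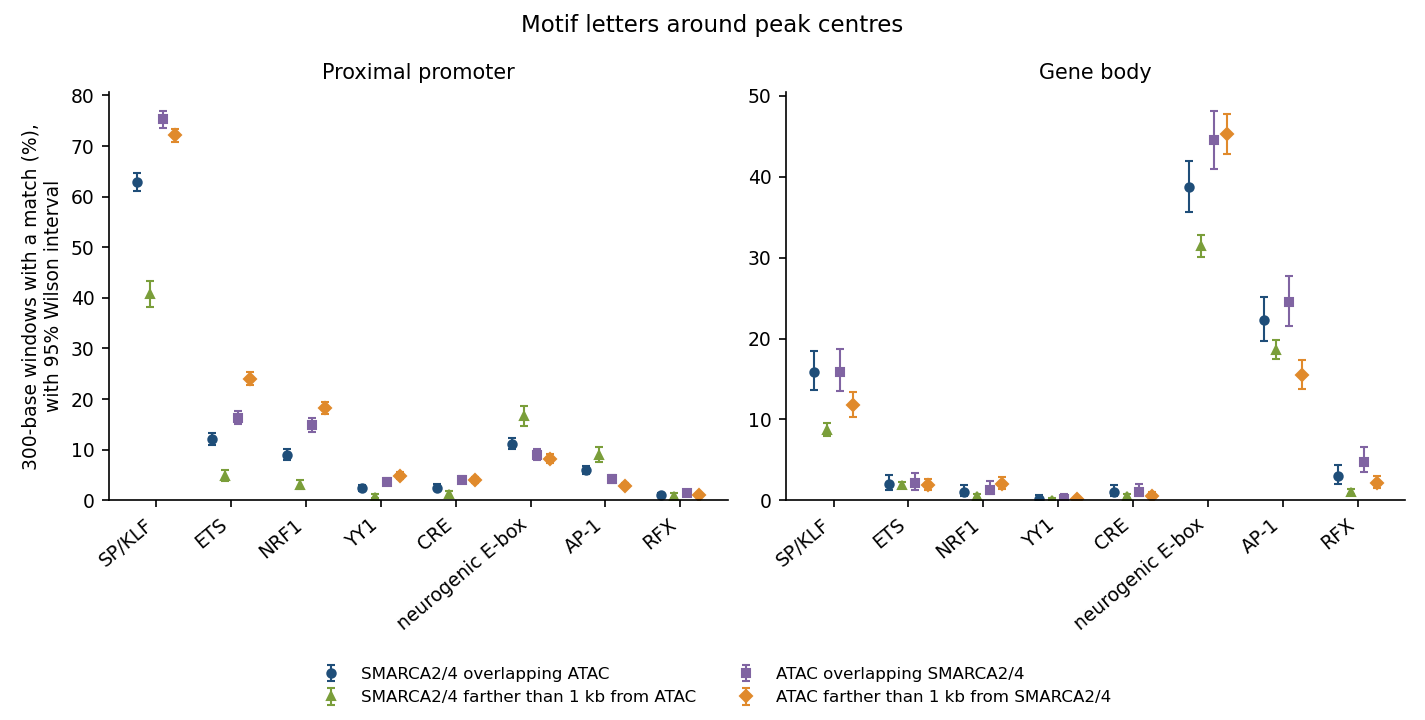
Percentage of 300-base windows around peak centres with a match to 8 of the 11 motifs, with 95% Wilson intervals; left, proximal promoter, right, gene body. ETS letters are in 24% of proximal promoter ATAC windows far from SMARCA2/4 and 16.3% of those overlapping it, and AP-1 letters in 15.5% and 24.5% of gene body ATAC windows.

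Windows with these letters are shown for high-ranked peaks whose window held them and no annotated untranslated base, chosen after the motif shares were seen, with the match in capitals. By fold enrichment Tenm2 ranked 3 among gene body SMARCA2/4 peaks overlapping ATAC and Kifc1 169 among promoter ATAC peaks without SMARCA2/4. Tenm2 is a gene body SMARCA2/4 peak of 6.03 that shares 45 bp with an ATAC peak of 4.22 in an intron, with an AP-1 match that lies inside the SMARCA2/4 peak and outside the ATAC peak. Kifc1, a kinesin gene, has a promoter ATAC peak of 7.21 with an ETS match and its nearest SMARCA2/4 peak 38605 bp away.
Tenm2, chr11:36565985-36566284, minus strand: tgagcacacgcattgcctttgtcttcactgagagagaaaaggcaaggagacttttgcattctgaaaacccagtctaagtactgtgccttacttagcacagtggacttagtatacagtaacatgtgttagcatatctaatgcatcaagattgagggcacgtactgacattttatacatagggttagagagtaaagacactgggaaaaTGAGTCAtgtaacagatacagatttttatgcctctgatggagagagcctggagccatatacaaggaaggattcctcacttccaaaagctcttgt
Kifc1, chr17:33890685-33890984, minus strand: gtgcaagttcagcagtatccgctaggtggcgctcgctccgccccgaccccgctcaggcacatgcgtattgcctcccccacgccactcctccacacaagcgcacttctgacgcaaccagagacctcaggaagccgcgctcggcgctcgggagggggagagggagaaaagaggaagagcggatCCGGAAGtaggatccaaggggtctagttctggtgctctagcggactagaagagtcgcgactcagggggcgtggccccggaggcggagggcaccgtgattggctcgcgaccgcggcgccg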

How the data were processed

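Reads of the immunoprecipitated, input and ATAC-seq libraries were aligned by the authors to mm10 with HISAT2 at default settings, and uniquely mapped reads were kept without duplicates. Peaks were called by the authors with MACS, which took input as the control of the precipitated libraries and shifted, extended reads for ATAC-seq, and were annotated with diffReps. They deposited 1 list per genotype and assay, with a fold enrichment (a linear ratio) and a q-value per peak; how replicates were combined is not given in the sources used here. The stated filter (q under 0.05, fold over 1.2) does not hold for the euploid ChIP-seq list, whose q-values reached 0.153 and were under 0.05 in 87.8% of peaks. Strong signal in repeats can enter such lists, and merging of short peaks depends on the caller. Culture read counts per gene were deposited as raw counts. The lines that name no gene held 39.0 to 39.9% of reads and were left out, which left 20663650 to 23207352 counts per library.

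Coordinates were read as 1-based and closed. Overlap was at least 1 bp and distance was edge to edge, checked on simulated intervals and with bedtools 2.31.1, which gave the same 6009 overlapping peaks. Gene types, exons and lengths came from GENCODE M21 (99.8% of the gene identifiers matched) and bases from the RefSeq mm10 genome. Repeat masking was that of the reference. Intervals used a 95% level (SciPy 1.17.1). Library scaling by edgeR 4.0.16 and by DESeq2 1.42.0 size factors was tried on the culture counts. The expression ratio is taken within each library, where such scaling cancels, so it could not move. No test between conditions was made. Named genes were the 8 strongest per promoter kind, 5 per gene body kind, up to 4 with both and 3 with one mark per gene list, and 8 fixed genes; a few that the rule names are not reported here. The 25 lists held 431 symbols, of which 429 matched. The members, lists and comparisons were chosen with earlier results of these data known. The 2 ChIP-seq lists of the other genotypes and their culture counts, 8 tables in all, were not used here.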

Additional observations from a re-analysis of the deposited data

How the results depend on the processing

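No paired analysis was possible because each assay entered as 1 pooled list and no result came from a test. Overlap of SMARCA2/4 with ATAC (26.5%) was 27.2% with q under 0.05 and fold over 1.2, 31.8% with q under 0.001, 28.1% with all peaks set to 300 bp, 21% when at least 50% of the shorter peak had to be shared and 50.5% against the union of the 3 ATAC lists. The share within 1 kb (51.0%) was 52.0%, 56.2% and 74.9% under the first, the second and the last of these, and 52.0% with the SMARCA2/4 list shortened to the number of ATAC peaks. The ATAC share (31.2%) was 28.7%, 14.2%, 33.3%, 26.0% and 24.7% in the order given for the overlap share, and 23.1% with the shortened list. The promoter minus intergenic difference was 22.3 points with q under 0.001, 24.1 at 300 bp and 23.6 with 50% sharing. The top minus bottom decile difference was -5.55 with q under 0.001, -1.16 within proximal promoters, 0.739 with 50% sharing, 2.32 (-0.40 to 5.04) at 300 bp, 15.8 with the shortened list and 14.3 ranked on q-value; the cause was not tested. Among all genes, 2746 had both promoter marks, 1212 with q under 0.001 and 5559 with a peak of any class. Alternatives chosen after seeing the data gave 27.1% overlap and 51.7% within 1 kb without repeat-masked peaks, and 31.8% and 46.6% for joined sites. The expression ratio of 1.26 was 1.23 with at least 10 counts per library, 1.40 without exon length and 1.25 to 1.27 leaving out each library. Among gene class counts, region class shares, gene list counts and motif differences, 900 values kept to their range and 100 moved. Of the moved values 29 were against the union. Only the motif differences could turn direction by the rule used, and 0 did. Gene counts do not depend on peak width or shared length, so those settings could not move them. Values of single named genes were not part of this check. The lists limit what can be said of a site without a peak, since read depth behind them is unknown.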
